A study of Homo sapiens with 6 samples.

Results

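The nuclear-encoded genes of the mitochondrial respiratory chain and ATP synthase were examined in K562 cells with and without induction of Flag-PCBP1. Members were the protein-coding genes of GENCODE 44 whose symbols begin with NDUFA, NDUFB, NDUFC, NDUFS, NDUFV, UQCR, COX4 to COX8, ATP5F, ATP5M or ATP5P, together with SDHA, SDHB, SDHC, SDHD and CYC1, and without NDUFAB1. This gave 97 of 62252 genes. They comprised 36 genes of complex I, 4 of complex II, 10 of complex III, 19 of complex IV, 18 of complex V, 8 complex I assembly factors (NDUFAF1 to NDUFAF8, which the NDUFA prefix takes in) and 2 read-through genes. NDUFA4 and NDUFA4L2 carry the name of complex I and were counted with complex IV, where the NDUFA4 protein resides.

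K562 is an established human line from a chronic myeloid leukemia that expresses erythroid genes. A single parental clone (K562flox) carried a blasticidin-resistance cassette at the AAVS1 locus, and the cassette was exchanged for Flag-PCBP1 under a tet-inducible promoter with puromycin resistance. Cells of both groups carried the Flag-PCBP1 cassette, and 3 libraries of polyA RNA were made without Dox (−Dox) and 3 with Dox (+Dox). The dose and duration of Dox for these libraries are not given in the sources used here, and an effect of Dox itself and one of Flag-PCBP1 cannot be told apart. The labels do not say whether the 3 libraries of a group came from separate cultures, so the p-values measure only the spread between these libraries, which may be technical.

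Salmon assigned a total of 84177316 estimated counts to −Dox replicate 1, 80104627 to replicate 2 and 74766040 to replicate 3. The +Dox totals were 70905656 for replicate 1, 82263502 for replicate 2 and 82449808 for replicate 3. Levels of single genes between libraries are given as CPM, counts scaled by TMM to a library of standard size. Levels between genes, and sums over genes in each library, are given as TPM, which is scaled for transcript length as well. Log2 fold changes are +Dox over −Dox, and adjusted p is from edgeR's quasi-likelihood test with Benjamini-Hochberg adjustment over all 21045 genes that reached a mean count of more than 10.

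Complex I (NADH dehydrogenase) and complex II (succinate dehydrogenase) pass electrons to ubiquinone, complex III passes them to cytochrome c, and complex IV (cytochrome c oxidase) passes them to oxygen. Complexes I, III and IV pump protons, and complex V (ATP synthase) uses the gradient to make ATP. Iron-sulfur clusters and hemes carry the electrons through these complexes, and PCBP1 is known both as an RNA-binding protein and as an iron chaperone. A core set of subunits of complexes I, III, IV and V is encoded by the mitochondrial genome, and the other subunits come from nuclear genes such as those described here.

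PCBP1, in order of replicate, had 247.5, 269.5 and 266.9 CPM without Dox and 1030, 936.4 and 1037 CPM with Dox. The groups did not overlap, and PCBP1 was 3.83-fold higher in +Dox (log2 fold change 1.94, SE 0.055, edgeR adjusted p = 5.22e-10), as its labels state. The erythroid genes HBG1 and HBE1 averaged 6027 and 3628 TPM over the 6 libraries, and GATA1 averaged 127.1 TPM. The B cell gene MS4A1 had 0 counts in every library, and the T cell gene CD3E had at most 6. Not all genes of other cell types were absent. In a list of 8 such genes, 5 had enough counts to be tested, and LYZ was the most abundant. The list summed to 135.1, 149.1 and 168.6 TPM in −Dox and to 108, 111.4 and 122.4 TPM in +Dox.

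The 97 genes held 1.63%, 1.77% and 1.74% of the counts of the −Dox libraries (replicates 1 to 3), and 1.84%, 1.72% and 1.82% of those of the +Dox libraries. Complexes were present at different summed levels. Averaged over the −Dox libraries, complex V summed to 11943 TPM, complex I to 10530 TPM, complex IV to 7727 TPM, complex III to 4010 TPM and complex II to 641.2 TPM. Complex II has 4 genes and complex I has 36, so the median level per tested gene, over all 6 libraries, is given as well. It was 591.9 TPM in complex V, 541.9 TPM in complex IV, 227.9 TPM in complex I, 190.9 TPM in complex III and 161.1 TPM in complex II.

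The subunit genes of complexes I, III, IV and V were spread more widely in level, from lowest to highest, than the 4 of complex II. Such a spread can only widen as genes are added, so it does not compare complexes of unequal size. In complex I, NDUFS5, an accessory subunit, had the highest mean level (1058 TPM), and NDUFV3, an accessory subunit of the NADH-binding module, the lowest (38.4 TPM), a ratio of 27.6. In complex III, UQCRH, the hinge protein next to cytochrome c1, stood at 2116 TPM and UQCRFS1, the Rieske iron-sulfur protein, at 53.7 TPM, a ratio of 39.4. In complex V, ATP5MF, a small subunit of the membrane part, stood at 2104 TPM and ATP5F1E, the epsilon subunit of the F1 head, at 63.1 TPM. The low TPM of ATP5F1E rests on a mean effective length of 2880 bases, from the transcripts to which Salmon assigned its reads. In CPM, ATP5F1E averaged 202.3 in −Dox, above ATP5F1D of the same head at 66.8. COX7C led complex IV at 1351 TPM, and SDHD led complex II at 233.6 TPM, where the flavoprotein SDHA was lowest at 78.3 TPM, a ratio of 2.98. Many of these transcripts are short, and TPM divides by an effective length that Salmon estimates in each library. Levels of the shortest genes, and of genes with isoforms of unlike length, rest on that estimate.

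**Figure D1:**
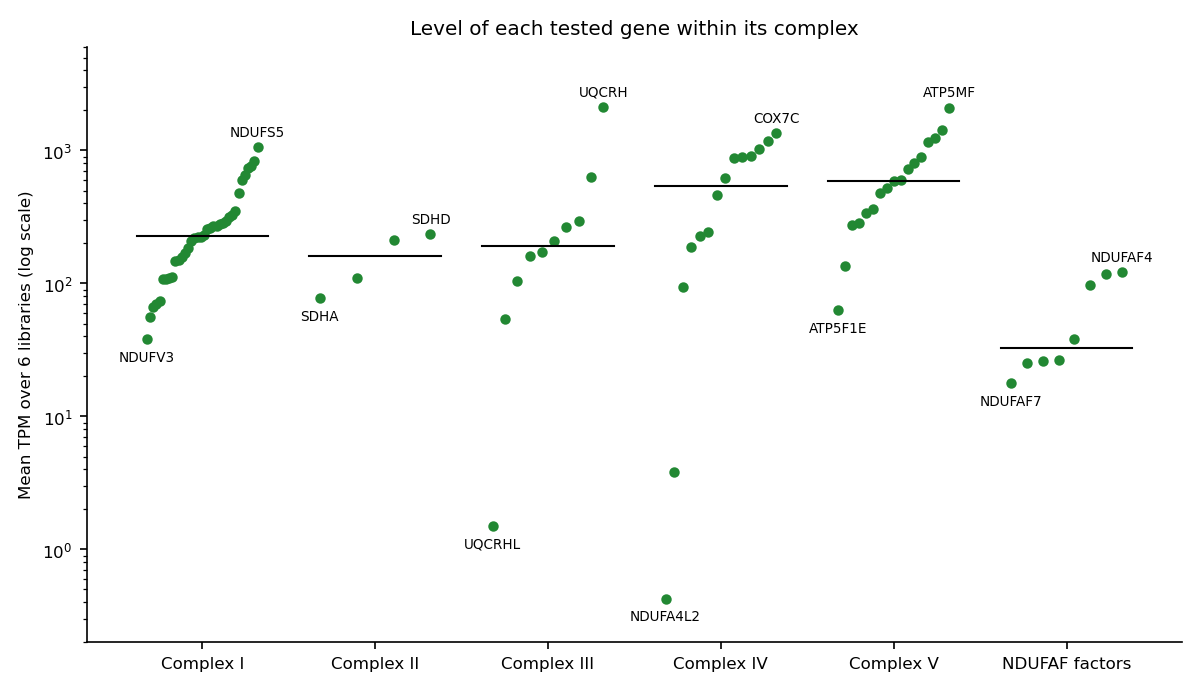
Mean TPM over 6 libraries (log scale) of each tested gene, 1 point per gene, in complexes I to V and among the NDUFAF assembly factors, with a line at the median. Subunit genes of 1 complex differ by up to 39.4-fold among those of at least 10 TPM, and UQCRHL, COX6B2 and NDUFA4L2 lie far below the rest.

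Several subunits of complexes III and IV are encoded by a pair of genes of which 1 serves most tissues and the other a particular tissue or state. In each of the 8 pairs examined, nearly all TPM came from 1 gene. COX4I2, the alternative to COX4I1, and COX6A2, the muscle form of COX6A1, had 0 counts in all 6 libraries, which allows at most 0.0357 to 0.0424 CPM per library (3 counts of the library's total, counting error only). COX7A1, the muscle form of the COX7A subunit, had 1 to 8 counts per library, COX7B2 had 0 to 3 and COX8C, a testis form, had 0 to 5. COX6B2, another testis form, held 0.14% to 0.553% of the TPM of its pair with COX6B1, NDUFA4L2 held 0.0964% to 0.382% of its pair with NDUFA4, and UQCRHL, an intronless copy of UQCRH whose reads cannot be fully told from those of UQCRH, held 0.00168% to 0.223%. COX4I2, COX6A2, COX7A1, COX7B2, COX8C and ATP5MGL, a copy of ATP5MG with 0 to 5 counts, did not reach a mean count of 10, and 91 of the 97 genes were tested.

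The libraries of 1 group did not stand at the same level for these genes. The median over the 91 tested genes, as a percent of each gene's mean over 6 libraries, was 91.4%, 103.8% and 99.2% across the −Dox replicates in order, and 105.3%, 94.7% and 104.6% across the +Dox replicates. −Dox replicate 1 held the lowest CPM of the 6 libraries for 58 of the 91 genes, and +Dox replicate 2 for 24. The same median over the 8748 protein-coding genes of at least 10 CPM lay between 98.98% and 101.1%. The 45 genes with the shorter effective lengths had medians of 88.5% in −Dox replicate 1 and 107.8% in +Dox replicate 1, and the 46 longer ones 94.9% and 103.2%. The difference between length and effective length of long transcripts without reads, which reflects the mean fragment length, was 278, 255 and 268 bases in −Dox and 270, 283 and 281 bases in +Dox. The part of fragment length in these levels was not tested, and the counts below are also given with −Dox replicate 1 or +Dox replicate 2 left out.

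**Figure D2:**
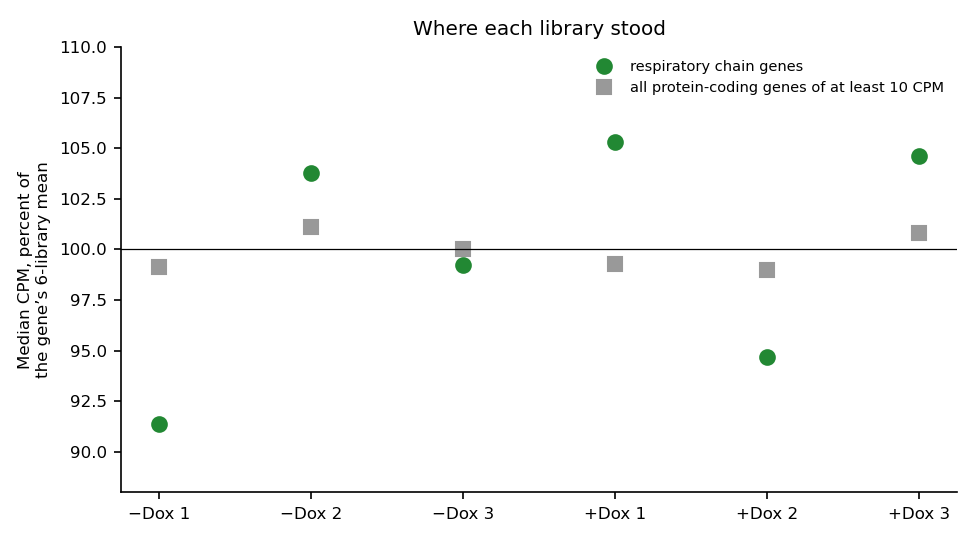
Median CPM in each library, as a percent of the gene's 6-library mean, of the 91 respiratory chain genes (circles) and of 8748 protein-coding genes of at least 10 CPM (squares), with the vertical axis starting at 88%. The respiratory chain genes stood at 91.4% in −Dox replicate 1 and 94.7% in +Dox replicate 2, while the larger set stayed between 98.98% and 101.1%.

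A minority of the genes passed the test, and the changes of those that passed were all below a log2 of 0.5. Of the 91 genes, 6 had an adjusted p under 0.05 (6.59%), where 15.8% of all genes tested passed. UQCRFS1, NDUFB5, ATP5PO and NDUFA4 rose in +Dox (8.16% of all genes passed as higher), and NDUFAF2 and NDUFAF4 fell (7.68% passed as lower). All 6 were among the 86 members of at least 10 CPM (6.98%), where 26.8% of the protein-coding genes of that level passed. At an unadjusted p, 22 of the 91 were under 0.05. The share of all genes at that unadjusted limit is not given here, so this count cannot be set against it. The study's methods called a differentially expressed gene (DEG) at an adjusted p under 0.05 with an absolute log2 fold change above 1. By these limits no member was a DEG by edgeR or by DESeq2, where 1.46% of all genes tested were DEGs by edgeR. No member passed both limits with the unadjusted p either, and the share of all genes at those limits is not given here.

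The precision allowed small differences to be bounded. In all 86 members of at least 10 CPM, the 95% interval of the log2 fold change lay within 0.5 in either direction, a 1.41-fold change, and its farthest bound was 0.493 from 0. The median absolute log2 fold change of these members was 0.071, and that of the 8748 protein-coding genes of the same level was 0.11, with median SEs of 0.063 and 0.059. The largest absolute log2 fold change among these 86 was 0.36, and 7.33% of the 8748 genes changed by more. Below 10 CPM the estimates were not precise, and that of NDUFA4L2 was 0.65 (95% interval −0.39 to 1.69, adjusted p = 0.423). The groups did not overlap for 13 of the 91 members (14.3%), where 33.2% of all genes tested did not overlap.

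**Figure D3:**
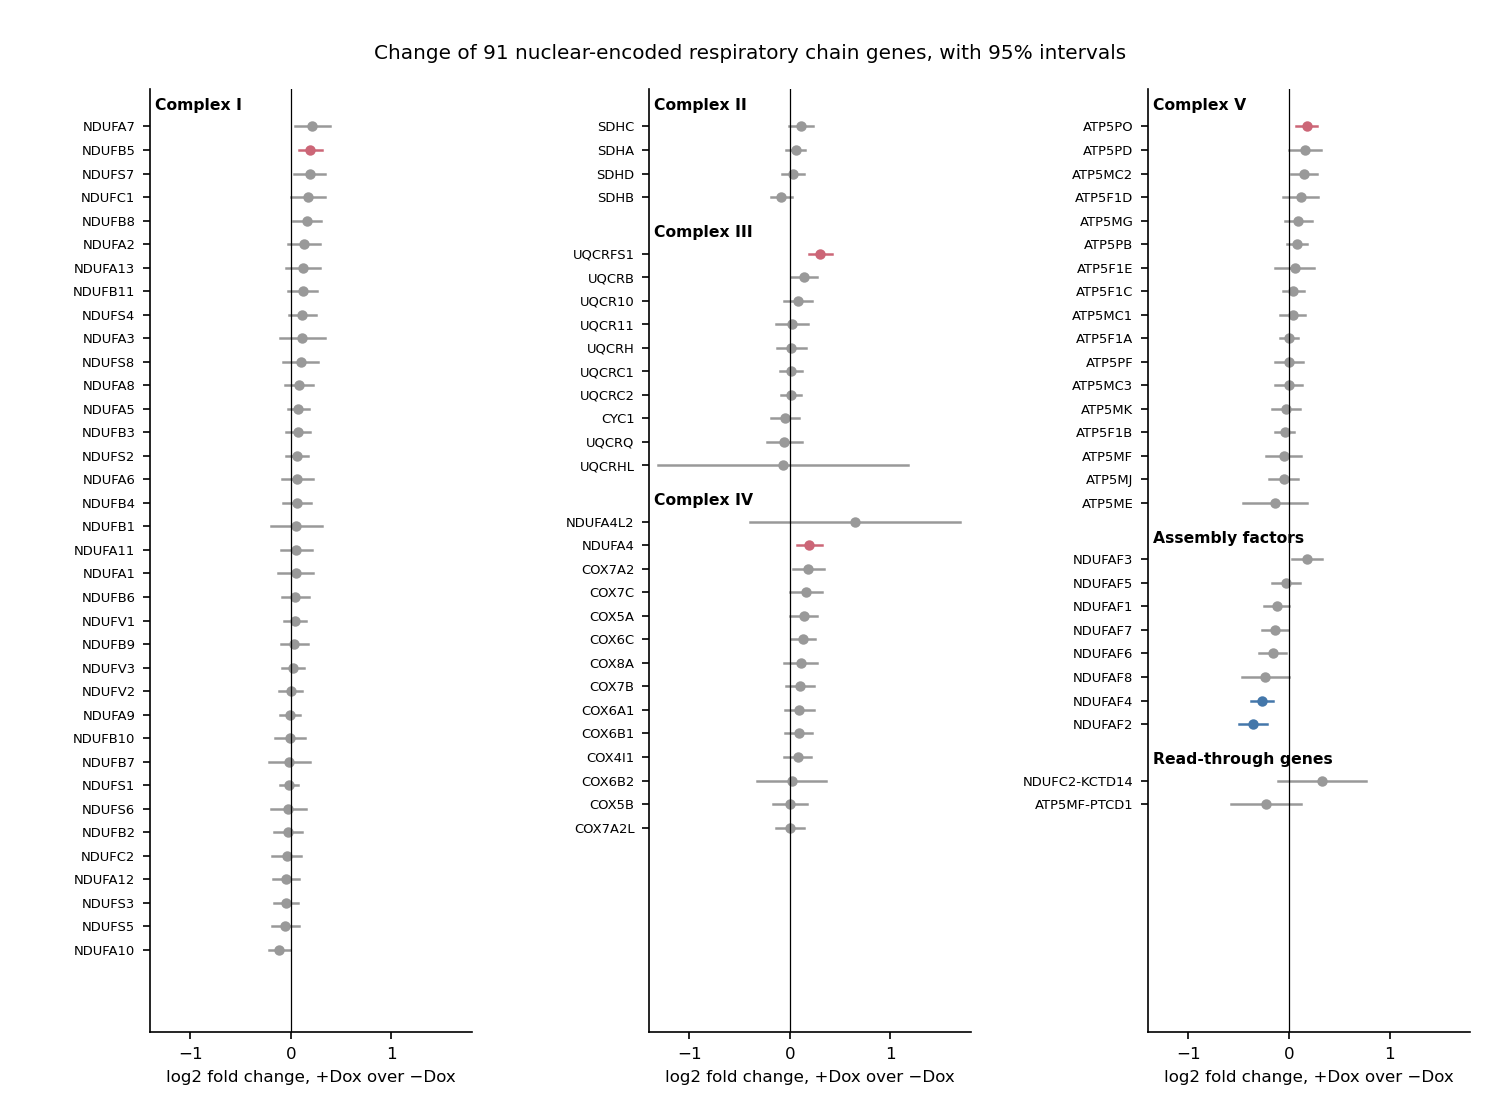
Log2 fold change (+Dox over −Dox) of the 91 tested genes by complex, as points with 95% intervals; red marks a higher and blue a lower level at an adjusted p under 0.05, and grey the rest. UQCRFS1, NDUFB5, NDUFA4 and ATP5PO lie to the right of 0 and NDUFAF2 and NDUFAF4 to the left, and the wide intervals belong to genes of few counts such as UQCRHL and NDUFA4L2.

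The count of 6, and whether the share of members lay below or above that of all genes, depended on single libraries, while the share of members lay below that of protein-coding genes of at least 10 CPM in each of the 6 fits that left out a library. Leaving out −Dox replicate 1 gave 5 (5.49%, beside 15.8% of all genes), and they were UQCRFS1, higher, and NDUFAF2, NDUFAF4, NDUFAF8 and the read-through gene ATP5MF-PTCD1, lower. Leaving out +Dox replicate 2 gave 13 (14.3%, beside 11.9% of all genes), of which 11 were higher, and the share of members was then above that of all genes and below that of protein-coding genes of at least 10 CPM (20.1%). Leaving out −Dox replicate 2 gave 7 (7.69%, beside 10.7% of all genes), and they were UQCRFS1, NDUFB5, NDUFB8, NDUFC1 and NDUFAF3, higher, and NDUFAF2 and NDUFAF4, lower. Leaving out −Dox replicate 3, +Dox replicate 1 or +Dox replicate 3 gave 3 (3.3%, beside 10.8% to 11.5%), and these were UQCRFS1, NDUFAF2 and NDUFAF4 each time. UQCRFS1, NDUFAF2 and NDUFAF4 thus passed in all 6 fits that left out a library, NDUFB5 in 2 of them and ATP5PO and NDUFA4 in 1 each.

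UQCRFS1 (GRCh38, chr19:29205320-29213151, minus strand) encodes the Rieske protein, whose iron-sulfur cluster takes electrons from ubiquinol in complex III. Its level, in order of replicate here and below, was 143.4, 153.9 and 152.5 CPM without Dox and 188.7, 173.4 and 192.7 CPM with Dox. All +Dox libraries lay above all −Dox libraries, and the gene was 1.23-fold higher in +Dox (log2 fold change 0.30, SE 0.052, 95% interval 0.19 to 0.42, edgeR adjusted p = 0.00187). The call held in each of 16 alternative settings, with adjusted p from 1.44e-06 to 0.039. GENCODE gives it 1 transcript, and its processed pseudogenes held 1.27% of the counts of the gene and its copies.

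NDUFAF2 (chr5:60945177-61154531, plus strand) encodes an assembly factor that binds a late intermediate of complex I. It was measured at 48.8, 55.3 and 52.1 CPM in −Dox and at 42.9, 38.2 and 40.9 CPM in +Dox. Every +Dox library lay below every −Dox library, and the level fell to 0.781-fold (log2 fold change −0.36, SE 0.063, edgeR adjusted p = 0.00204). NDUFAF4 (chr6:96889315-96897891, minus strand), which takes part in an early step of complex I assembly, was measured at 88.9, 91.8 and 85.9 CPM in −Dox and at 76.3, 71.2 and 74.4 CPM in +Dox. These groups did not overlap either, and it fell to 0.833-fold (log2 fold change −0.26, SE 0.050, edgeR adjusted p = 0.0032). Each kept its call in 15 of 16 alternative settings and missed it where the length offset and the replicate number entered the same fit (adjusted p = 0.0607 and 0.0824). Most TPM of NDUFAF4 (73.5% to 77%) was assigned to a transcript without a defined coding sequence, and 85.5% to 89.2% of that of NDUFAF2 to its main coding transcript.

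The sequences just before the starts of the genes that kept their calls most often are shown because UQCRFS1 and NDUFAF2 each have a second gene that starts close by in the opposite direction. They are from RefSeq (GRCh38.p14), 5′ to 3′ on the strand of the gene, and end at the base before the start. Capitals mark matches on either strand to 4 motifs, chosen with these sequences in view. The motifs were an NRF1-like site (GCGCNTGCG), the ETS core (CCGGAAG), the CCAAT box (CCAAT) and a YY1-like site (AAGATGG), none of which contains another.
UQCRFS1, chr19:29213152-29213401, minus strand: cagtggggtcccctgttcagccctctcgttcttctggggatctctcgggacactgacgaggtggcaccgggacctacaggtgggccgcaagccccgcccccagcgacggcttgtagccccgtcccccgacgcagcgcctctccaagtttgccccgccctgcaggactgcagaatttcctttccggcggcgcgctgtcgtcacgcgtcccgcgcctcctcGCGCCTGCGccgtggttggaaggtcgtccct
NDUFAF2, chr5:60945074-60945176, plus strand: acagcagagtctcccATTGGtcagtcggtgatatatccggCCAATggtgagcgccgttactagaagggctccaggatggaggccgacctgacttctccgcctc
NDUFAF4, chr6:96897892-96898141, minus strand: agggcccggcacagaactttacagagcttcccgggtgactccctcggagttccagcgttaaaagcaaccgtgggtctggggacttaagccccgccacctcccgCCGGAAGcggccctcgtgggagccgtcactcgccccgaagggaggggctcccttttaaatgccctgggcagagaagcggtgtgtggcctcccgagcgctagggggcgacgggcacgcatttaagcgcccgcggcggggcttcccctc

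The NDUFAF2 sequence is the whole interval of 103 bases between the gene and ERCC8, a gene of transcription-coupled DNA repair that starts on the other strand. ERCC8 averaged 37.7 ± 2.4 CPM without Dox and 36.8 ± 3.24 CPM with Dox (SD, n = 3 each; log2 fold change −0.035, SE 0.071, edgeR adjusted p = 0.804), beside the fall of NDUFAF2. NDUFB5 likewise starts 41 bases from MRPL47, a gene of the mitochondrial ribosome read in the other direction, which was measured at 119.7 ± 2.24 and 107.7 ± 6.68 CPM (log2 fold change −0.15, edgeR adjusted p = 0.0683). UQCRFS1-DT, a noncoding gene, starts 84 bases from UQCRFS1, and another noncoding gene starts 270 bases from NDUFA4, and neither reached a mean count of more than 10. The differences between neighbours were not tested. Among the 76 members with a RefSeq promoter in the table used, the NRF1-like letters occurred within 250 bases before the start in 21 (27.6%), beside 15.8% of 7292 promoters of protein-coding genes of at least 10 CPM and 6.54% of all 35116 promoters. The ETS core occurred in 23.7% of the members' promoters, beside 19.5% and 8.52%, the CCAAT box in 31.6%, beside 36.4% and 32%, and the YY1-like letters in 5.26%, beside 3.91% and 3.7%. A match to these letters is a description of the sequence and no evidence of binding.

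NDUFB5, ATP5PO and NDUFA4 rose by less and kept their calls less often. NDUFB5 (chr3:179604690-179627647, plus strand), an accessory subunit of the membrane arm of complex I, was measured at 136.8, 151.1 and 148.4 CPM in −Dox and at 165.8, 160.1 and 173 CPM in +Dox (log2 fold change 0.19, SE 0.052, edgeR adjusted p = 0.0234). ATP5PO (chr21:33903453-33915814, minus strand), the subunit that ties the F1 head of ATP synthase to its peripheral stalk, was measured at 406.6, 425.8 and 420.1 CPM in −Dox and at 481.6, 446.6 and 489.4 CPM in +Dox (log2 fold change 0.18, SE 0.048, edgeR adjusted p = 0.0235). NDUFA4 (chr7:10931943-10940153, minus strand) was measured at 289.5, 322.3 and 316 CPM in −Dox and at 351.7, 331.6 and 376.2 CPM in +Dox (log2 fold change 0.19, SE 0.057, edgeR adjusted p = 0.0378). In all 3 genes the groups did not overlap (as in 33.2% of all genes tested), −Dox replicate 1 was the lowest library and +Dox replicate 2 the lowest of its group. They passed in 8, 9 and 7 of 16 alternative settings, and with an offset for transcript length ATP5PO passed (adjusted p = 0.0272) while NDUFB5 and NDUFA4 did not (0.0782 and 0.103). Annotated genes on the same strand share 15.5% of the exonic bases of ATP5PO and 7.26% of those of NDUFB5.

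**Figure D4:**
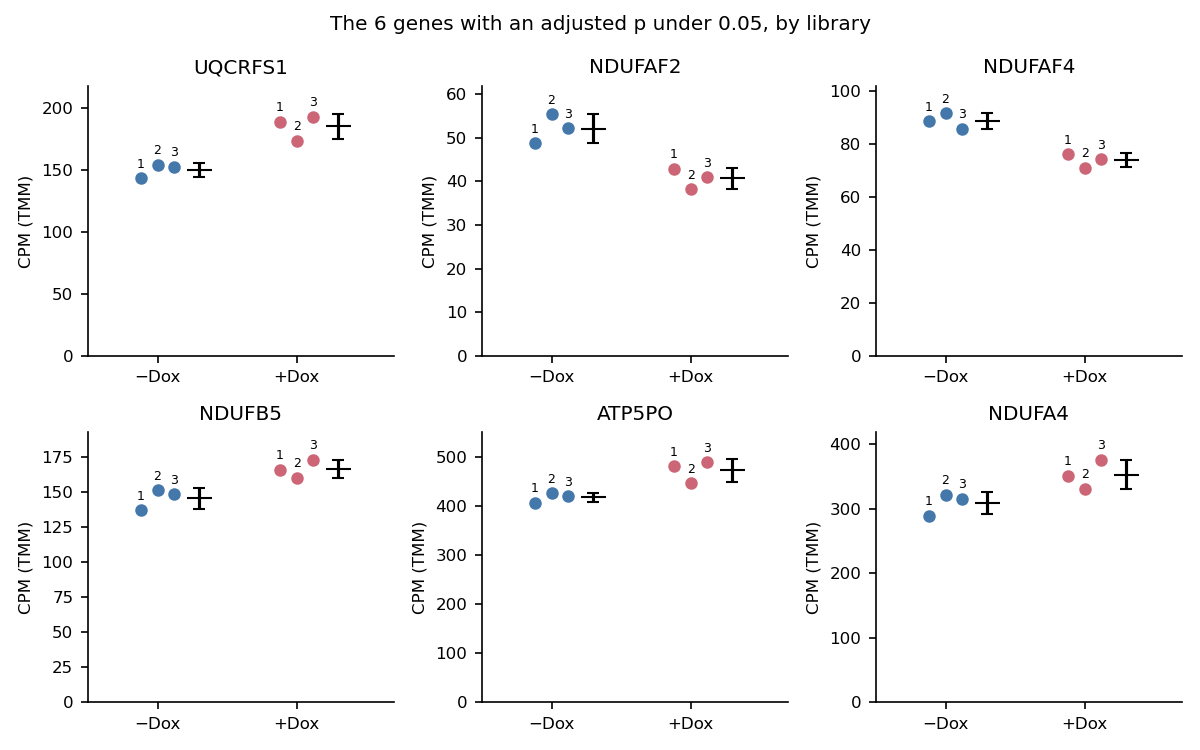
CPM of the 6 genes with an adjusted p under 0.05 in each library (points, numbered by replicate), with the mean and SD of each group of 3 beside them. The groups do not overlap in any panel; UQCRFS1, NDUFB5, ATP5PO and NDUFA4 are higher in +Dox, and NDUFAF2 and NDUFAF4 lower.

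In complex I, 1 of 36 subunit genes passed the test (NDUFB5). This was 2.78%, beside 15.8% of all genes tested and 26.8% of protein-coding genes of at least 10 CPM. The median log2 fold change was 0.055, beside 0.0061 over all genes tested. The summed level was 10211, 10678 and 10702 TPM in −Dox and 11020, 10678 and 11003 TPM in +Dox, and the groups overlapped. None of the 7 nuclear core subunits, which form the path of electrons from NADH toward ubiquinone, passed. Their log2 fold changes ran from −0.048 in NDUFS3 to 0.19 in NDUFS7 (edgeR adjusted p = 0.0915), and 51.4% of the exonic bases of NDUFS7 overlap a gene on the other strand. NDUFA7 had the highest estimate of the complex (log2 fold change 0.21, SE 0.079, adjusted p = 0.0868) and NDUFA10 the lowest (−0.12, SE 0.048, adjusted p = 0.129). Without −Dox replicate 1 the median of the complex was 0.0053.

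Complex II, whose 4 subunits are all nuclear-encoded, had no call, where 15.8% of all genes tested passed. SDHA, the flavoprotein, was measured at 165.2, 162.9 and 163.5 CPM in −Dox and at 174.5, 169.6 and 167.4 CPM in +Dox, and SDHB, the iron-sulfur subunit, at 177.3, 184.7 and 179.8 and at 173.5, 161.1 and 176.8 CPM. The groups did not overlap in either gene, as in 33.2% of all genes tested, with SDHA above and SDHB below. The differences were 0.057 and −0.083 on the log2 scale and did not pass (edgeR adjusted p = 0.432 and 0.291). The 95% interval was −0.036 to 0.15 for SDHA and −0.19 to 0.022 for SDHB. Pseudogenes held 6.09% of the counts of SDHA and its copies. SDHC and SDHD, the membrane anchors that hold the heme, had log2 fold changes of 0.11 and 0.029 (adjusted p = 0.191 and 0.771).

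In complex III, UQCRFS1 was the 1 call among 10 genes. This was 10%, beside 15.8% of all genes tested and 26.8% of protein-coding genes of at least 10 CPM. The median log2 fold change was 0.015, and leaving out 1 library took it from −0.0162 to 0.0767. The core proteins UQCRC1 and UQCRC2 had log2 fold changes of 0.014 and 0.012 (SE 0.050 and 0.047), and CYC1, the heme-bearing cytochrome c1, −0.052 (SE 0.064), with adjusted p of 0.896, 0.912 and 0.658. The summed level was 4010 ± 64.4 TPM in −Dox and 4025 ± 144 TPM in +Dox (SD, n = 3 each), a difference smaller than the spread between replicates.

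In complex IV, NDUFA4 was the 1 call among 14 tested genes. This was 7.14%, beside 15.8% of all genes tested and 26.8% of protein-coding genes of at least 10 CPM. Complex IV had the highest median log2 fold change of the 5 complexes, 0.10. The SD of that median between libraries of a group was 0.114. The estimates of all 14 genes were above 0, 12 of them still with DESeq2's size factors, 12 with −Dox replicate 1 left out and 11 with +Dox replicate 3 left out. The summed level was 7458, 7762 and 7960 TPM in −Dox and 8419, 8194 and 8663 TPM in +Dox. In this sum every +Dox library lay above every −Dox library, with a ratio of means of 1.09. In CPM the groups overlapped. The median log2 level of the tested genes, relative to −Dox, was −0.121, 0.1 and 0.0326 in −Dox and 0.166, −0.0133 and 0.188 in +Dox. COX7A2, a small subunit of the membrane part, had a log2 fold change of 0.18 (SE 0.072, adjusted p = 0.106) and COX7C one of 0.16 (SE 0.072, adjusted p = 0.162), while COX5B and COX7A2L stood at 0.0035 and 0.0013. COX4I1, the largest nuclear-encoded subunit, was at 0.076 (adjusted p = 0.474). With the transcript length offset the median of the complex was 0.166 and COX7A2 passed (adjusted p = 0.0273), and without −Dox replicate 1 the median was 0.054.

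In complex V, ATP5PO was the 1 call among 17 tested genes. This was 5.88%, beside 15.8% of all genes tested and 26.8% of protein-coding genes of at least 10 CPM. The median log2 fold change was 0.037, and leaving out 1 library took it from −0.0103 to 0.0827. The summed level was 11462, 12243 and 12124 TPM in −Dox and 12316, 11645 and 12179 TPM in +Dox, and the groups overlapped. The 5 genes of the F1 head ran from −0.042 in ATP5F1B, the catalytic beta subunit, to 0.12 in ATP5F1D, with ATP5F1A at 0.0019 and none passing. Each of the 3 ATP5MC genes encodes the same mature c subunit of the rotor ring. ATP5MC3 held 57.8% ± 0.99 of their TPM in −Dox and 55.7% ± 0.31 in +Dox, ATP5MC2 26.6% ± 0.62 and 28.9% ± 0.3, and ATP5MC1 15.5% ± 0.44 and 15.4% ± 0.13 (SD, n = 3 each). ATP5MC2 had a log2 fold change of 0.15 (SE 0.060, adjusted p = 0.114). ATP5ME was the least precise abundant member (−0.14, SE 0.15), and 61.3% of its exonic bases overlap MYL5 on the other strand.

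**Figure D5:**
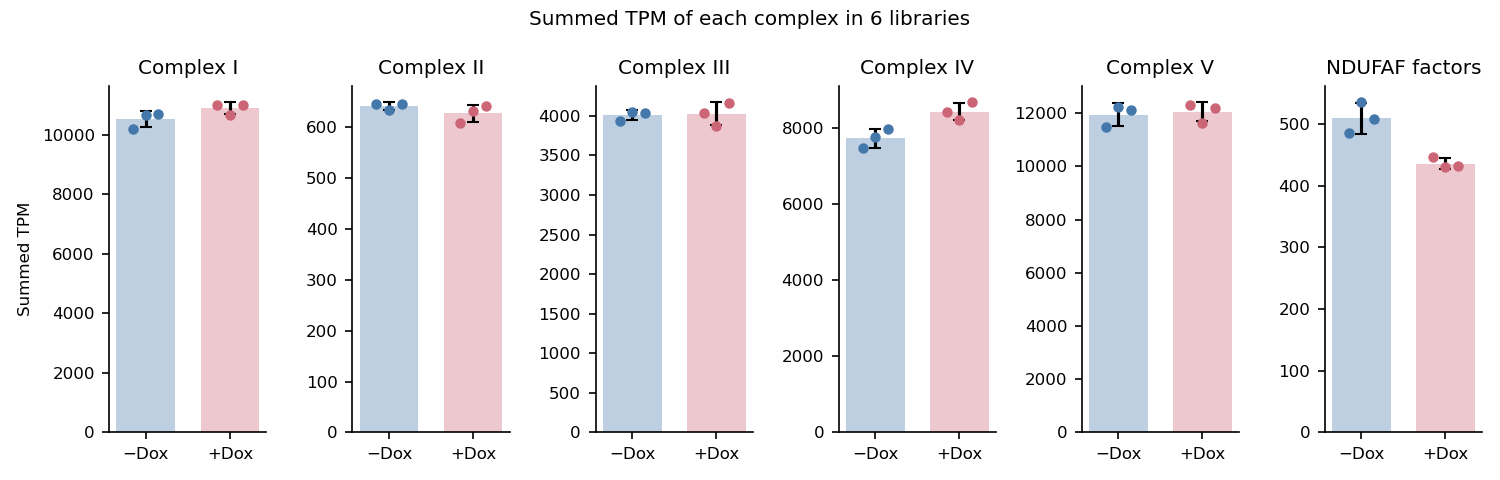
Summed TPM of each complex and of the NDUFAF assembly factors in the 3 −Dox and 3 +Dox libraries (points), with bars at the mean and error bars of 1 SD; each panel has its own axis from 0. The groups do not overlap for complex IV, 7458 to 7960 against 8194 to 8663 TPM, and for the assembly factors, 484.6 to 534.5 against 429.2 to 446.7 TPM.

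The NDUFAF assembly factors build complex I but are not part of it. Of 8 genes, 7 had estimates below 0 and 2 passed as lower, with a median log2 fold change of −0.15. Of the 8748 protein-coding genes of at least 10 CPM, 4452 had estimates below 0 and 1222 passed as lower. Over all genes tested, 7.68% passed as lower. Their summed level was 484.6, 534.5 and 507.1 TPM in −Dox and 446.7, 429.2 and 431 TPM in +Dox, a ratio of means of 0.856. NDUFAF1, NDUFAF6 and NDUFAF7 had groups that did not overlap, as 33.2% of all genes did, each lower in +Dox, with log2 fold changes of −0.12, −0.16 and −0.14 that did not pass (adjusted p = 0.18, 0.0965 and 0.148). NDUFAF8 was measured at 35.8, 52.3 and 43 CPM in −Dox and 39.7, 34 and 37.6 CPM in +Dox, and passed without −Dox replicate 1, its lowest −Dox library. NDUFAF3, at 23.7, 28.7 and 25.5 CPM in −Dox and 30, 28.8 and 29.7 CPM in +Dox, had groups that did not overlap in the other direction (0.18, adjusted p = 0.0991), and passed as higher without −Dox replicate 2, its highest −Dox library. Of 45 assembly factors of the 5 complexes with other names, 4 rose and 2 fell (13.3%, beside 15.8% of all genes tested), with a median of −0.017 (19 estimates above 0 and 26 below). SCO1, a copper chaperone of complex IV, fell (log2 fold change −0.28, SE 0.053, adjusted p = 0.00301), as did BCS1L, which inserts the Rieske protein into complex III (−0.20, SE 0.057, adjusted p = 0.0312). TMEM126B for complex I (0.19), SDHAF4 for complex II (0.43), COA5 for complex IV (0.18) and ATPAF1 for complex V (0.23) rose, with edgeR adjusted p of 0.0171, 0.0467, 0.0415 and 0.0175. SCO1 kept its call in all 6 fits that left out a library, TMEM126B and ATPAF1 in 4, BCS1L and COA5 in 2 and SDHAF4 in 0. With the transcript length offset none of the 6 passed (adjusted p from 0.0741 in BCS1L to 0.31 in TMEM126B), and the log2 fold change of SCO1 was −0.17 (adjusted p = 0.119). TMEM126B turned to −0.12 when only its protein-coding transcripts were counted.

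The 10 members that hold an iron-sulfur cluster or bind heme had 1 call, UQCRFS1 (10%, beside 15.8% of all genes and 26.8% of protein-coding genes of at least 10 CPM), and a median log2 fold change of 0.036, with 6 estimates above 0 and 4 below. Their summed level was 1614, 1620 and 1658 TPM in −Dox and 1625, 1617 and 1668 TPM in +Dox. The groups overlapped, and the difference of their means was smaller than the spread between replicates. Apart from UQCRFS1 the log2 fold changes ran from −0.083 in SDHB to 0.19 in NDUFS7.

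Of the 13 subunits encoded by the mitochondrial genome, 3 rose and 1 fell, where 15.8% of all genes and 26.8% of protein-coding genes of at least 10 CPM passed, with a median log2 fold change of 0.0072. MT-CYB, the cytochrome b of complex III, rose from 4958, 5160 and 4680 CPM in −Dox to 6121, 5999 and 6261 CPM in +Dox (log2 fold change 0.31, SE 0.047, edgeR adjusted p = 0.000754). The 2 mitochondrially encoded subunits of complex V rose too, MT-ATP8 by 0.33 (SE 0.065, adjusted p = 0.00435) and MT-ATP6 by 0.22 (SE 0.044, adjusted p = 0.00445); they lie on 1 transcript and overlap, so their reads are not independent. MT-CO1, the catalytic subunit of complex IV, fell by 0.18 (SE 0.054, adjusted p = 0.0451), with groups that overlapped, and kept its call in 1 of 6 fits that left out a library, where the other 3 kept theirs in all 6 of those fits. In complex III the nuclear gene UQCRFS1 (0.30) and the mitochondrial gene MT-CYB (0.31) passed as higher, and the other members of the complex did not pass. Whether the 2 changes are alike or related was not tested.

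Of 12 regulators of mitochondrial gene expression, 11 were tested and 6 fell. Beside this, 7.68% of all genes tested fell, as did 1222 of the 8748 protein-coding genes of at least 10 CPM. The list was chosen with earlier results of these data known, so its share is a description only. TFB2M, a factor of mitochondrial transcription initiation, fell from 102.9, 113.1 and 101.7 CPM to 77.7, 75.4 and 76.2 CPM (log2 fold change −0.47, SE 0.052, adjusted p = 8.08e-05). PPARGC1B, a coactivator of mitochondrial biogenesis, fell from 40.5, 34.4 and 33.7 CPM to 23.6, 24.9 and 26.3 CPM (−0.54, SE 0.075, adjusted p = 0.000409). POLRMT, the mitochondrial RNA polymerase, fell by 0.26 (adjusted p = 0.0102) and TFAM, which packages mitochondrial DNA, by 0.19 (adjusted p = 0.0108), and PPRC1 and TFB1M, named after their values were seen, were the other 2. None of these 6 had groups that overlapped, where 33.2% of all genes tested did not overlap. Genes that pass the test are picked for groups that lie apart, so this adds nothing to the calls. NRF1, GABPA, GABPB1 and ESRRA, transcription factors of respiratory chain genes, had log2 fold changes of 0.026, −0.074, 0.031 and −0.077 and did not pass (adjusted p from 0.408 to 0.842). PPARGC1A was not tested for low counts. With the transcript length offset 3 of the 6 passed, and 4 regulators fell when replicate 2 or 3 of −Dox or replicate 1 or 3 of +Dox was left out.

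Of 17 genes of electron carriers and entry points 1 passed (5.88%, beside 15.8% of all genes). ETFB, a subunit of the flavoprotein that feeds electrons from fatty acid oxidation, rose from 78.8, 87.3 and 85.8 CPM to 117.2, 102.5 and 104.7 CPM (log2 fold change 0.36, SE 0.061, edgeR adjusted p = 0.00149). The other 16 did not pass, among them CYCS, cytochrome c, at −0.11 (SE 0.047, adjusted p = 0.14), and the list's median was −0.0074.

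Some markers of the cell line differed between the groups. Of 6 K562 genes 3 passed, where 15.8% of all genes did, and the median log2 fold change of the 6 was −0.0014. TAL1 (log2 fold change 0.44) and KLF1 (0.46) rose and TFRC (−0.34) fell (edgeR adjusted p from 8.34e-05 to 0.00121), and the summed level of the 6 was 10437, 10742 and 10102 TPM in −Dox and 9732, 9620 and 9504 TPM in +Dox, with HBG1 the most abundant. Of 8 genes of other cell types, 5 were tested and LYZ, the most abundant, fell (log2 fold change −0.47, adjusted p = 0.00837), with summed levels of 135.1, 149.1 and 168.6 TPM in −Dox and 108, 111.4 and 122.4 TPM in +Dox. MS4A1 was at 0 in every library. The part of these differences in those of the respiratory chain genes was not tested, and in bulk RNA a change in the share of cells and a change in RNA per cell cannot be told apart.

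At the level of transcripts, 644 transcripts of 91 members were tested and 0 passed with edgeR, where 0.204% of all 86178 transcripts tested passed. An unadjusted p under 0.05 was found for 49 of the 644, and the share of all transcripts at that limit is not given here. The smallest adjusted p, 0.061, belonged to UQCRH-205, a transcript of UQCRH annotated for nonsense-mediated decay, with 1189, 1124 and 934 estimated counts in −Dox and 1538, 1709 and 1732 in +Dox (log2 fold change 0.65). It passed among transcripts with a mean count above 50 (adjusted p = 0.0365). The median SE of the log2 fold change was 0.34 for these transcripts and 0.063 for the 91 genes. The single transcript of UQCRFS1 had a log2 fold change of 0.33 with an SE of 0.056 and did not pass among the 86178 transcripts (adjusted p = 0.124).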

How the data were processed

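The authors sequenced polyA RNA in paired ends of 150 cycles and quantified it with Salmon 1.10.2 (submitters' processing notes, build hg38), depositing for each transcript an estimated count and a TPM value. The index, strand and bias settings are not given in the sources used here, and without strand the reads of genes that overlap on opposite strands cannot be told apart. Of 97 members, 23 share at least 5% of their exonic bases with a gene on the other strand.

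Transcripts were matched to GENCODE 44 (251612 of 252045; the rest held 0.125% to 0.138% of counts). Counts were summed per gene and rounded, and TPM values were summed. The test was edgeR 4.0.16 in R 4.3.3 (quasi-likelihood, glmQLFit and glmQLFTest, TMM factors of 0.974 to 1.03, no covariates) on genes whose mean count exceeded 10. The precision of each value is given as an SE or 95% interval. Alternatives were RLE size factors, DESeq2 1.42.0, 3 other filters, a transcript length offset, protein-coding transcripts only, pseudogene counts added, each library left out, and the replicate number as a block; the offset with the block in the same fit was added after seeing the data. The smallest p an exact permutation test allows for 3 against 3 is 0.1, so none was run. The scripts were tested on simulated data.

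The members and lists were chosen with earlier results of these data known. Genes named are PCBP1, the members with an adjusted p under 0.05, the highest and lowest member of each complex, the members bearing iron, the paired isoforms and c subunits, up to 4 genes of each other list by p, and members without counts. NDUFA7, NDUFA10, UQCRC1, UQCRC2, COX7A2, COX7C, COX5B, COX7A2L, ATP5F1 and NDUFAF genes that did not pass, ATP5ME, the neighbouring genes, and the regulators, assembly factors and other listed genes beyond 4 a list were named after their values were seen. Not every gene of the cell line's marker list is reported here. Promoters were from RefSeq (GRCh38.p14). Chi-square values per gene between libraries of a group were 8.16 to 17.5, above sampling noise. Tables and figures used Python 3.11.15, pandas 2.3.3, numpy 2.4.6 and matplotlib 3.10.9.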

Additional observations from a re-analysis of the deposited data

How the results depend on the processing

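UQCRFS1 kept its call in all 16 alternative settings, NDUFAF2 and NDUFAF4 in 15 and the rest of the called members in 7 to 9; the log2 fold change of PCBP1 kept its call in all 16. The count of called members (6, of which 4 higher and 2 lower) was 14 (11 higher) with no filter on low counts, 14.7% of members beside 11% of all genes and 29.9% of protein-coding genes of at least 10 CPM, where the main shares were 6.59%, 15.8% and 26.8%, and ranged from 3 to 13 when 1 library was left out (1 to 11 higher, 2 to 4 lower). With the replicate block it was 3 (1 higher), 3.3% of members beside 11.8% of all genes. With the transcript length offset and the block in the same fit it was 1 (1 higher, 0 lower), 1.1% beside 6.07%. Of the 6 regulators that fell, 4 passed with the replicate block (TFAM had an adjusted p of 0.0627 and TFB1M of 0.0655) and 2 with the offset and the block, and MT-ATP6 did not pass with the block (adjusted p = 0.0844). The cause was not tested. Same-numbered libraries correlated at 0.00752, −0.0605 and −0.00285 in their deviations from the group means, and differently numbered ones at −0.0725 to 0.0759. Every gene tested counted equally here, so noise in genes of few counts can hide a shared effect. Whether the replicate numbers pair the libraries is therefore not settled. No member was a DEG in any setting. Member transcripts passing went from 0 to 1 with a mean count above 50. The complex medians moved by less than the spread between libraries of a group in every setting; leaving out 1 library took that of complex I from 0.0053 to 0.105, complex II from 0.0274 to 0.0566, complex III from −0.0162 to 0.0767, complex IV from 0.054 to 0.161 and complex V from −0.0103 to 0.0827, so the sign of complexes III and V was not fixed. TMEM126B reversed, to −0.116, with protein-coding transcripts only. The effect of depth was not tested.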
